A study of Mus musculus with 9 samples.

Results

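Pericytes and vascular smooth muscle cells, together called mural cells, wrap the endothelial tube of brain vessels. In brain RNA from mice with cerebral venous sinus thrombosis (CVST), 9 genes that mark them were followed, found by gene symbol, among 20731 gene symbols in the count table. 6 of them mark pericytes (Pdgfrb, Rgs5, Kcnj8, Abcc9, Vtn, Notch3) and 3 belong to the contractile apparatus of smooth muscle (Acta2, Tagln, Myh11). All 9 passed the filter on low counts and are among the 14746 genes tested.

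The mice were male C57BL/6J animals aged 8 to 10 weeks, and RNA was taken on day 2 after modelling from 3 mice in each of 3 groups. In all of them the superior sagittal sinus was thrombosed with ferric chloride. No further operation is described for the CVST group. Mice of the CVST+Ligation group also had their deep cervical lymph nodes tied off, and the study's authors caution that tying may itself cause local inflammation. The 4-PBA group had thrombosis, ligation and 4-phenylbutyric acid, a chemical chaperone that lowers endoplasmic reticulum stress. The study's methods give the 4-PBA dose as 100 mg/kg by intraperitoneal injection 30 min before modelling, whereas the deposited design text places the agent after ligation. The sample labels give the tissue as brain and the design text gives cortex. Mice without thrombosis were not analysed here, so each comparison asks what ligation, or 4-PBA in ligated mice, adds to thrombosis.

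Pericytes sit on capillaries, embedded in the endothelial basement membrane. Endothelial PDGF-B holds them there through the receptor PDGFRβ, and their loss opens the blood-brain barrier. Smooth muscle cells form rings around arteries and arterioles and set vessel calibre with actin and myosin filaments, whose genes are driven by serum response factor (SRF) with myocardin and related cofactors. Notch3, activated by Jagged ligands on the endothelium, keeps arterial smooth muscle differentiated.

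The libraries held 18100739 to 25091498 counts, so that 3 counts, used as the floor, correspond to 0.114 to 0.163 CPM (counts scaled to library size). CPM values below are scaled by TMM, a normalization for RNA composition. 2 libraries stood apart. CVST+Ligation replicate 2 had a summed level of 1724 CPM over 10 cerebellar markers, against 57.8 to 118 CPM in the other 8 libraries. Region markers also differed between the groups. The summed level of 8 thalamic markers was 67.7 to 78.5 CPM in CVST, 163 to 338 CPM in CVST+Ligation and 334 to 621 CPM in 4-PBA. 11 midbrain dopamine markers summed to 50.3 to 133 CPM, 239 to 270 CPM and 252 to 314 CPM in the same order, with Pitx3 and Foxa2 at 0 counts in CVST. Nr4a2 made up 65.3 of the 84 CPM in CVST on average, and had 56.3 CPM in CVST+Ligation and 43.1 CPM in 4-PBA. Slc6a3 averaged 0.18, 38.9 and 60.7 CPM in CVST, CVST+Ligation and 4-PBA, and Slc18a2 0.40, 20.2 and 17.0 CPM. 11 striatal markers summed to 1079 to 1943 CPM, 231 to 542 CPM and 275 to 1379 CPM, and 10 hypothalamic markers to 10.1 to 51.3 CPM, 17.1 to 71.7 CPM and 314 to 625 CPM. 4-PBA replicate 1 had a summed level of 3162 CPM over 10 choroid plexus markers, against 22.5 to 988 CPM in the other 8 libraries. The part of these tissue differences in the results for the vessel genes was not tested. In bulk RNA, fewer cells of a type and less RNA per cell cannot be told apart.

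All 9 genes were detected in every library, the lowest count being 110 for Kcnj8 in CVST replicate 3. Levels of different genes were compared as FPKM, which scales counts by library total and gene length. Vtn had the highest level, with a mean of 84.3 FPKM over the 9 libraries and a range of 69.3 to 125 FPKM. Tagln (mean 54.5, range 28.5 to 76.3 FPKM), Acta2 (mean 49.6, range 18.3 to 83.2 FPKM) and Rgs5 (mean 46.8, range 27.2 to 59.5 FPKM) followed and overlapped widely. A gap separated these from the other 5 genes. Pdgfrb had a mean of 6.97 FPKM, Kcnj8 6.0 FPKM, Myh11 5.55 FPKM, Notch3 3.19 FPKM and Abcc9 2.50 FPKM, and each of these ranges overlapped the next. The order depends on the gene length used by the authors, which for Rgs5 was 548 bases against 4546 bases of annotated exons. Per kilobase of all annotated exons, Vtn stayed first at 59.4 CPM, Acta2 (25.3 CPM) came before Tagln (16.5 CPM), and Rgs5, at 5.62 CPM, lay close to Myh11 at 4.32 CPM and Pdgfrb at 4.19 CPM.

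Pdgfrb encodes the receptor tyrosine kinase by which pericytes receive endothelial PDGF-B, and lies on chromosome 18 (GRCm38, chr18:61045150-61085061, plus strand). Its level was 21.2, 26.3 and 12.8 CPM in CVST replicates 1, 2 and 3, 22.1, 24.99 and 19.3 CPM in CVST+Ligation, and 23.2, 31.3 and 25.6 CPM in 4-PBA. The groups overlapped, and CVST replicate 3 was the lowest of all libraries. Rgs5, a regulator of G protein signalling (chr1:169655501-169695813, plus strand), had 22.2, 27.8 and 15.7 CPM in CVST. In CVST+Ligation it had 30.3, 29.0 and 17.3 CPM, and in 4-PBA 31.97, 30.9 and 24.6 CPM. Replicate 3 was the lowest of each group, and all groups overlapped.

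Kcnj8 and Abcc9 encode the pore (Kir6.1) and the regulatory subunit (SUR2) of the ATP-sensitive potassium channel of mural cells, and are neighbours on the minus strand of chromosome 6, with 16247 bases between them (chr6:142564837-142571614 and chr6:142587862-142702315). Kcnj8 had 11.9, 7.05 and 5.97 CPM in CVST, 7.19, 10.05 and 7.65 CPM in CVST+Ligation and 6.07, 6.73 and 6.13 CPM in 4-PBA. The 3 libraries of 4-PBA lay below all 3 of CVST+Ligation, though not below CVST replicate 3. Abcc9 had 15.6, 12.95 and 6.08 CPM in CVST, 11.98, 18.04 and 11.5 CPM in CVST+Ligation and 13.7, 9.93 and 8.76 CPM in 4-PBA. Its groups overlapped. An antisense gene shares 158 exonic bases with Abcc9, and another shares 488 with Notch3.

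Vtn encodes vitronectin, a matrix glycoprotein that pericytes secrete and that binds integrins on neighbouring endothelium (chr11:78499091-78502324, plus strand). It had 102, 123 and 112 CPM in CVST, 104, 174 and 102 CPM in CVST+Ligation and 134, 128 and 106 CPM in 4-PBA. Only the library with cerebellar markers, CVST+Ligation replicate 2, left the range of the others, and without it the mean difference between CVST+Ligation and CVST turned from 0.17 to -0.13 on the log2 scale. Notch3 (chr17:32120820-32166852, minus strand) had 19.8, 20.8 and 13.9 CPM in CVST, 20.7, 34.9 and 17.7 CPM in CVST+Ligation and 23.0, 24.7 and 23.8 CPM in 4-PBA. The 3 libraries of 4-PBA lay close together and above all 3 of CVST.

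Acta2, Tagln and Myh11 encode smooth muscle α-actin, the actin-binding protein transgelin and the smooth muscle myosin heavy chain. Acta2 (chr19:34241090-34255590, minus strand) had 29.1, 42.7 and 21.8 CPM in CVST, 58.7, 91.3 and 36 CPM in CVST+Ligation and 89.9, 79.9 and 50.6 CPM in 4-PBA. Myh11 (chr16:14194535-14291372, minus strand) had 10.9, 20.5 and 13.6 CPM in CVST, 36.2, 56.4 and 19.9 CPM in CVST+Ligation and 56.7, 55.8 and 25 CPM in 4-PBA. Both genes were higher in every 4-PBA library than in every CVST library. In CVST+Ligation 2 of 3 libraries exceeded all of CVST, and replicate 3 lay just below CVST replicate 2 for either gene. Tagln (chr9:45929619-45936058, minus strand) did not share this pattern. It had 39.8, 41.0 and 18.1 CPM in CVST, 24.3, 39.0 and 19.6 CPM in CVST+Ligation and 28.1, 40.5 and 44.0 CPM in 4-PBA, and every pair of groups overlapped. Tagln shares 108 exonic bases with Pcsk7 and 1241 bases with an antisense gene on the opposite strand. Reads of the closely similar actin genes may be shared with Acta2. Acta1, the skeletal muscle actin, had 198 to 300 counts in CVST, where Acta2 had 402 to 962, 66 to 229 counts in CVST+Ligation, where Acta2 had 819 to 1772, and 77 to 142 counts in 4-PBA, where Acta2 had 1328 to 1898. Actg2 had 4 to 29 counts and Actc1 0 to 2, while the cytoplasmic actins Actb and Actg1 had 22931 to 49576 and 19312 to 33520. The part of shared reads in the values of Acta2 was not tested.

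**Figure D1:**
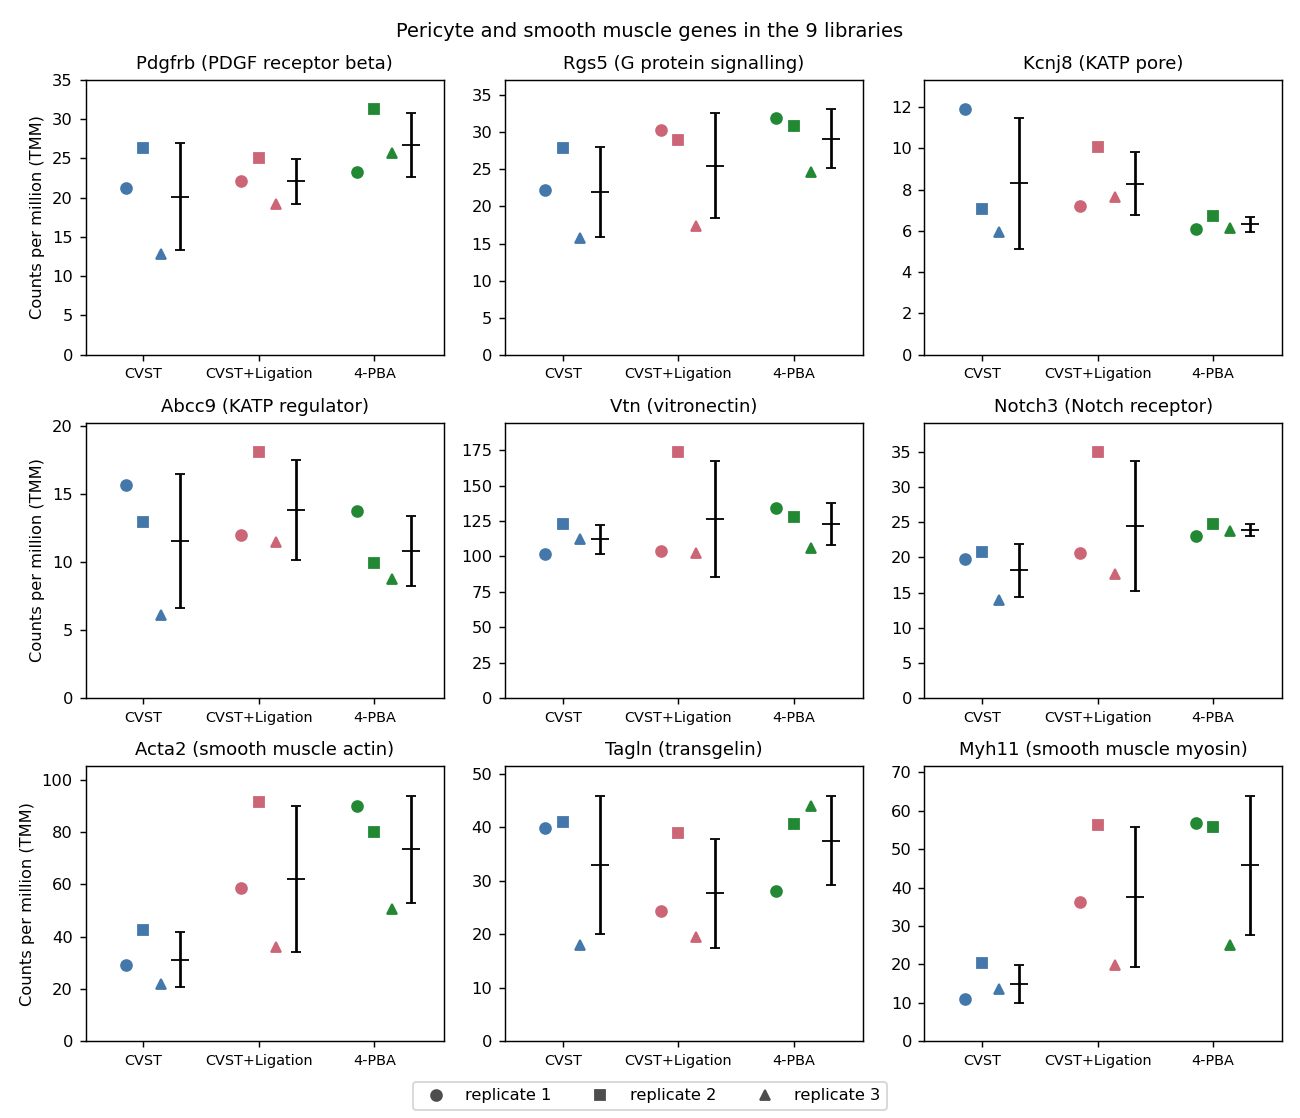
Level of each of the 9 genes in CPM (TMM, linear axis from 0) in the 9 libraries, by group; the marker shape gives the replicate, and the black bar beside each group gives the mean and SD of 3 libraries. Acta2 and Myh11 lie higher in all 4-PBA libraries than in all CVST libraries, whereas Tagln overlaps in every pair of groups.

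SRF binds CArG boxes, written CC, 6 bases of A or T, GG, so the 250 bases before the RefSeq start site were searched in the promoters at hand. These covered 6 of the 9 genes (Rgs5, Kcnj8, Abcc9, Vtn, Notch3, Acta2). None of the 6 held a strict box, which 1.47% of 32851 promoters hold. With 1 G or C allowed among the 6 bases, a form chosen after the sequences were seen, Acta2 held 2 boxes and the other 5 genes none. 8.59% of all promoters hold at least 1 such box and 0.67% hold 2 or more. The RBPJ motif TGGGAA, the DNA word of the Notch effector, was found on either strand in 3 of the 6 (Abcc9, Vtn and Acta2) and in 21.6% of all promoters. The core promoter word TATATAA was in 0 of the 6 and in 3.04% of all promoters. The Acta2 boxes are shown because Acta2, with Myh11, is the smooth muscle gene that the comparisons below turn on. In the RefSeq sequence of GRCm38.p6, minus strand, 5′ to 3′, with the box in capitals, they read
Acta2 box 84 to 75 bases before the start, chr19:34255438-34255467: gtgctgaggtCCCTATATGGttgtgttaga
Acta2 box 34 to 25 bases before the start, chr19:34255388-34255417: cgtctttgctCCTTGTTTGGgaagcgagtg
The final bases of the second box overlap the TGGGAA word. GENCODE places the start of Acta2 further upstream, at position 34255590, so that both boxes lie in its first exon (34255290 to 34255590), which is noncoding. A match is a sequence description only.

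Whether ligation added to thrombosis was asked by comparing CVST+Ligation with CVST. 7 of the 9 genes were higher in mean, beside 50.3% of all genes tested. None of the 9 passed at a Benjamini-Hochberg adjusted p below 0.05 with edgeR's quasi-likelihood test, nor with DESeq2 or limma, beside 0.0203% of all genes tested with edgeR. 2 of the 9 had an unadjusted p below 0.05 with each of the 3 tools. In edgeR this stands beside 9.64% of all genes tested, 5.47% higher and 4.18% lower. For 0 of the 9 did the groups not overlap, beside 13.8% of all genes tested, 6.61% higher and 7.21% lower. Myh11 was 14.99 ± 4.95 CPM in CVST and 37.5 ± 18.3 CPM in CVST+Ligation (mean ± SD, n = 3), a difference of 1.32 on the log2 scale (SE 0.43, 95% interval 0.36 to 2.29, edgeR adjusted p = 0.386). Acta2 was 31.2 ± 10.6 and 62.0 ± 27.8 CPM, a log2 difference of 0.99 (SE 0.36, 95% interval 0.17 to 1.81, edgeR adjusted p = 0.428). Neither difference passes the test across all genes. Without CVST+Ligation replicate 2, the library with cerebellar markers, they were 0.90 for Myh11 (edgeR adjusted p = 0.628) and 0.60 for Acta2 (adjusted p = 0.7), so no gene of the 9 then had an unadjusted p below 0.05. Without CVST replicate 1 or replicate 3, Myh11 alone kept one, with log2 differences of 1.13 and 1.24.

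Tagln was 32.95 ± 12.9 CPM in CVST and 27.6 ± 10.1 CPM in CVST+Ligation, a log2 difference of -0.26 (95% interval -1.04 to 0.53). With a library left out, it ran from -0.59 to -0.060. The 6 pericyte genes differed by -0.0045 (Kcnj8) to 0.43 (Notch3) on the log2 scale, with a median of 0.20 beside 0.00 over all genes tested, and none had an unadjusted p below 0.05. That median was 0.027 without CVST+Ligation replicate 2 and -0.031 without CVST replicate 3, and 0.36 without CVST replicate 2. The 95% interval for the fold was 0.74 to 1.63 for Pdgfrb, 0.77 to 1.76 for Rgs5 and 0.81 to 1.56 for Vtn. These intervals hold losses as well as gains, so the data do not show that the levels were alike.

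Comparing 4-PBA with CVST+Ligation asks what the chaperone adds in ligated mice. 5 of the 9 genes were higher in mean, beside 47% of all genes tested. The unadjusted p was not below 0.05 for any of the 9 in edgeR, DESeq2 or limma, beside 3.23% of all genes tested in edgeR (1.81% higher, 1.42% lower). 0 passed after adjustment in any of these tools, beside 0% of all genes tested in edgeR. The smooth muscle genes differed by 0.24 (Acta2), 0.29 (Myh11) and 0.44 (Tagln) on the log2 scale. With a library left out, these ran from -0.031 to 0.64, -0.015 to 0.72 and 0.25 to 0.79. The 95% interval of the fold was 0.68 to 2.07 for Acta2 and 0.64 to 2.35 for Myh11. Of the pericyte genes, Pdgfrb differed by 0.27 and Rgs5 by 0.19, and the channel genes Kcnj8 and Abcc9 by -0.39 and -0.36. Kcnj8 was the single member whose groups did not overlap, 8.30 ± 1.54 against 6.31 ± 0.37 CPM, beside 7.73% of all genes tested, 3.51% higher and 4.22% lower.

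Against CVST, 7 of the 9 genes were higher in mean in the 4-PBA group, beside 48.9% of all genes tested. Acta2 and Myh11 again had an unadjusted p below 0.05, beside 15.4% of all genes tested. This comparison shares its libraries with the other 2 and is no independent evidence. Myh11 was 45.9 ± 18.1 CPM in 4-PBA, a log2 difference from CVST of 1.61 (SE 0.43, 95% interval 0.64 to 2.58, edgeR adjusted p = 0.127). Acta2 was 73.5 ± 20.4 CPM, a log2 difference of 1.23 (SE 0.37, 95% interval 0.41 to 2.05, edgeR adjusted p = 0.156). 0 of the 9 genes passed with edgeR and with limma after Benjamini-Hochberg adjustment, beside 0.122% of all genes tested with edgeR. DESeq2 called both, with adjusted p = 0.00686 for Myh11 and 0.0237 for Acta2, but it called 855 of all genes in this comparison where edgeR called 18. Neither difference depended on a single library for its direction: with each library left out in turn, Myh11 differed by 1.43 to 1.92 and Acta2 by 1.01 to 1.54 on the log2 scale. Without 4-PBA replicate 1, the library with choroid plexus markers and the highest of its group for both genes, they differed by 1.44 (edgeR adjusted p = 0.343) and 1.08 (adjusted p = 0.409). Without both CVST+Ligation replicate 2 and CVST replicate 3, the log2 differences were 1.53 and 1.01 (edgeR adjusted p = 0.096 and adjusted p = 0.104).

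3 genes did not overlap between 4-PBA and CVST, all higher in 4-PBA (Notch3, Acta2 and Myh11), beside 23.7% of all genes tested without overlap, 12.3% higher and 11.5% lower. Notch3 differed by 0.39 on the log2 scale (95% interval -0.19 to 0.98). Tagln differed by 0.19 (95% interval -0.60 to 0.97). Pdgfrb and Rgs5 both differed by 0.41, with 95% intervals of -0.16 to 0.98 and -0.18 to 1.01, Vtn by 0.13, Abcc9 by -0.10 and Kcnj8 by -0.40. With a library left out, Pdgfrb ran from 0.15 to 0.67, Rgs5 from 0.20 to 0.63 and Kcnj8 from -0.60 to -0.037.

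**Figure D2:**
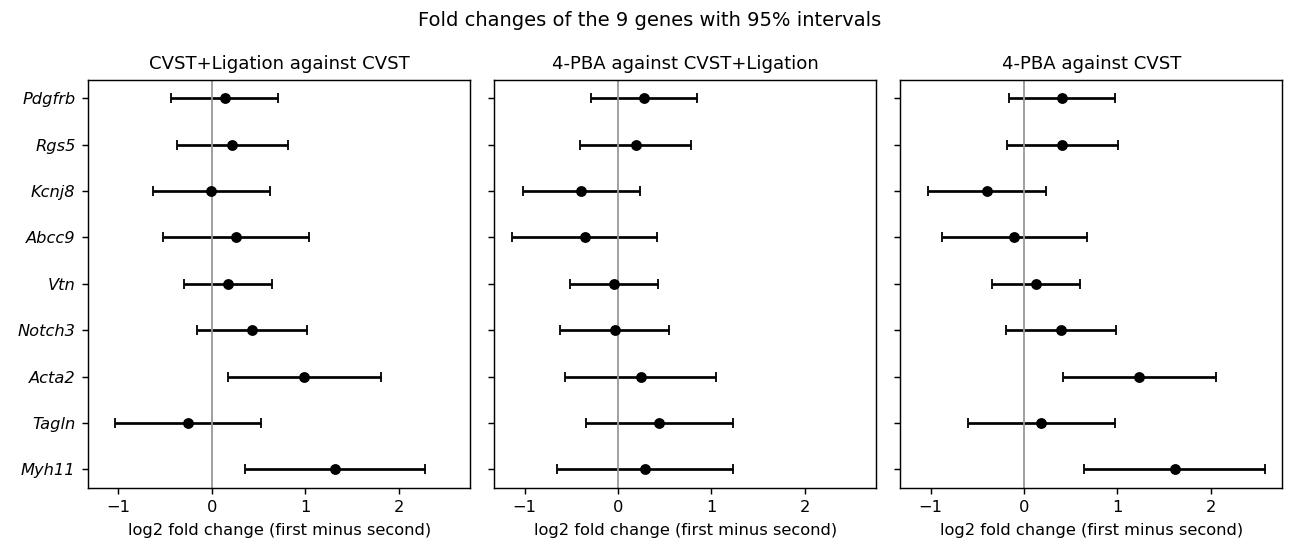
log2 fold change of each gene (point) with its 95% interval (bar) from edgeR in the 3 comparisons named above the panels, first group minus second; the grey line marks no difference. The intervals of Acta2 and Myh11 exclude 0 in both comparisons with CVST, and all intervals of the other 7 genes include 0; none of the 9 passes after adjustment over all genes in edgeR.

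The relation among the contractile genes was read from ratios within each library, which do not depend on scaling. The ratio of Tagln to Acta2 in CPM was 1.37, 0.962 and 0.828 in CVST, 0.414, 0.427 and 0.543 in CVST+Ligation and 0.312, 0.507 and 0.869 in 4-PBA. Every CVST+Ligation library lay below every CVST library, the library with cerebellar markers included, and 4-PBA spread over both ranges. With 3 libraries against 3, an exact permutation test cannot give a p below 0.1. The ratio of Myh11 to Acta2 was closer, at 0.374 to 0.624 in CVST, 0.553 to 0.618 in CVST+Ligation and 0.494 to 0.699 in 4-PBA, and all groups overlapped.

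To set the mural genes against the amount of vessel RNA, they were divided by the sum of 19 endothelial markers. That sum was 684, 820 and 581 CPM in CVST, 669, 894 and 610 CPM in CVST+Ligation and 769, 764 and 786 CPM in 4-PBA. The sum of the 6 pericyte genes, divided by it, gave ratios of 0.282, 0.265 and 0.287 in CVST, 0.293, 0.325 and 0.288 in CVST+Ligation and 0.302, 0.303 and 0.248 in 4-PBA. Most of this sum is Vtn, at 112 of 192 CPM in CVST, 127 of 221 CPM in CVST+Ligation and 123 of 219.6 CPM in 4-PBA on average, so the ratio describes Vtn more than the other 5 genes. CVST replicate 3, the lowest library for 7 of the 9 genes, was also the lowest in the endothelial sum, and CVST+Ligation replicate 2, the highest of its group for 8 of the 9, was the highest. The ratio of Acta2 and Myh11 together to the endothelial sum was 0.0585, 0.077 and 0.061 in CVST, 0.142, 0.165 and 0.0917 in CVST+Ligation and 0.191, 0.178 and 0.0962 in 4-PBA. On this scale neither CVST+Ligation nor 4-PBA overlapped CVST. The same ratio for Tagln was 0.0311 to 0.0582 in CVST, 0.0321 to 0.0436 in CVST+Ligation and 0.0365 to 0.056 in 4-PBA. These ratios were formed after the values were seen and carry no test.

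**Figure D3:**
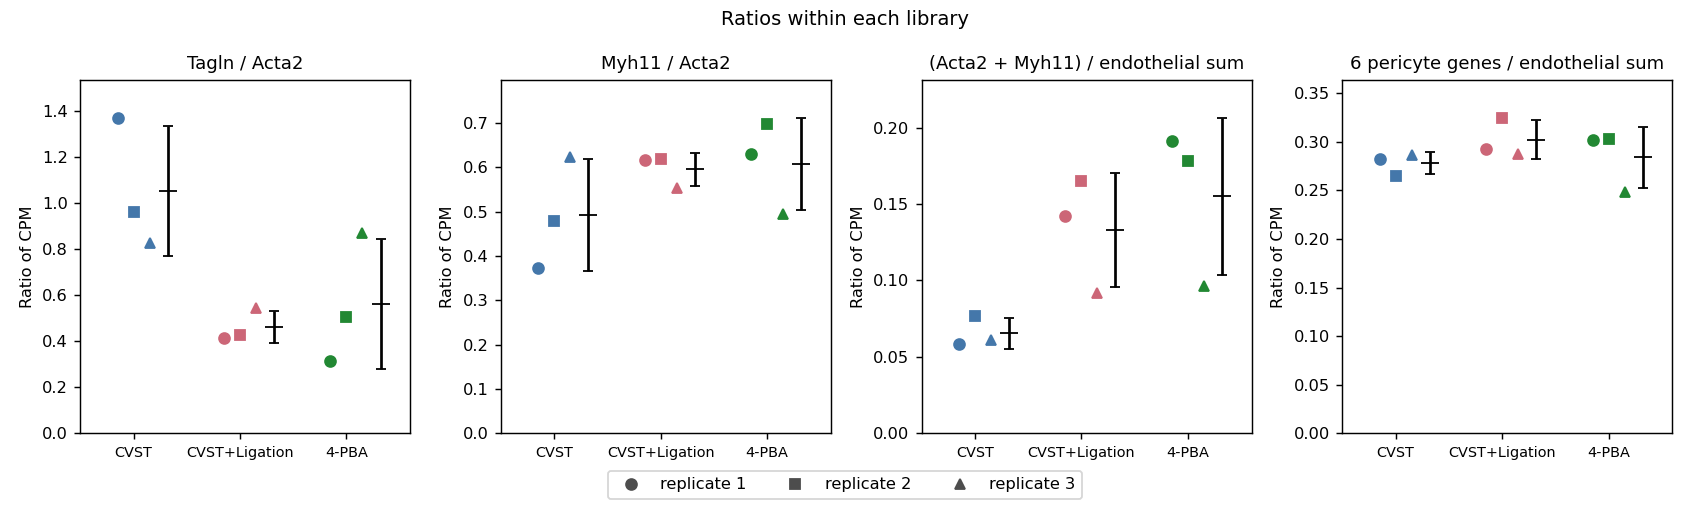
Ratios of CPM within each library (linear axes from 0), by group, with marker shapes for replicates and a black bar for mean and SD of 3 libraries. Tagln over Acta2 is lower in all CVST+Ligation than in all CVST libraries, Acta2 plus Myh11 over the endothelial sum is higher in all libraries of both ligated groups than in CVST, and the sum of the 6 pericyte genes, most of it Vtn, has ratios of 0.248 to 0.325. The ratios were formed after the values were seen and carry no test.

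Across the 9 libraries, 33 of the 36 pairs of genes had a positive Pearson r of log2(CPM + 1), with a median of 0.567 and a range of -0.221 to 0.966. Libraries of a pair share tissue, depth and group, so these values describe these libraries. The permutations shuffled all 9 libraries across groups, so their p-values do not set gene pairs apart from differences in group or tissue. No share over all pairs of genes tested was computed. Acta2 and Myh11 were the closest pair (r = 0.966, exact permutation p = 9.37e-05, 0.00337 after adjustment over 36 pairs; Spearman's rho = 0.967, exact permutation p = 0.000165, adjusted 0.00595; r = 0.984 without the 2 libraries farthest from the median of Acta2). In contrast, Tagln had r = 0.416 with Acta2 (exact permutation p = 0.261, rho 0.25, p = 0.521) and r = 0.227 with Myh11 (exact permutation p = 0.54, rho 0.15, p = 0.708), and r = 0.809 with Pdgfrb (exact permutation p = 0.00252, adjusted 0.0227; rho 0.833, p = 0.00827, adjusted 0.0496; r = 0.774 without the 2 farthest libraries). The other adjusted p-values of r below 0.05 belonged to 3 pairs. Rgs5 with Acta2 had r = 0.866 (exact permutation p = 0.00203, adjusted 0.0227; rho 0.867, p = 0.00451, adjusted 0.0406; r = 0.844 without the 2 farthest libraries). Notch3 with Acta2 had r = 0.848 (exact permutation p = 0.00188, adjusted 0.0227; rho 0.867, p = 0.00451, adjusted 0.0406; r = 0.753 without them). Pdgfrb with Rgs5 had r = 0.821 (exact permutation p = 0.00398, adjusted 0.0286), but rho 0.633 (p = 0.076, adjusted 0.196) and r = 0.642 without them. By rho alone, 2 more pairs passed: Rgs5 with Myh11 (rho 0.883, exact permutation p = 0.00308, adjusted 0.0406; r = 0.775, p = 0.0144, adjusted 0.0662) and Pdgfrb with Notch3 (rho 0.833, exact permutation p = 0.00827, adjusted 0.0496; r = 0.763, p = 0.028, adjusted 0.0805).

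The channel genes Kcnj8 and Abcc9 did not pass after adjustment (r = 0.72, exact permutation p = 0.0307, adjusted 0.0805; rho 0.667, p = 0.0589, adjusted 0.177; r = 0.51 without the 2 farthest libraries), while Kcnj8 had r = 0.10 with Pdgfrb and -0.0021 with Rgs5. Instead of 33, 21 of the 36 values were above 0 once the 2 libraries farthest from the median of the first gene were left out. As deviations from the group means, which removes the differences between groups, all 36 were positive with a median of 0.671, the lowest being 0.03 for Kcnj8 with Myh11 and the highest 0.916 for Acta2 with Myh11.

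**Figure D4:**
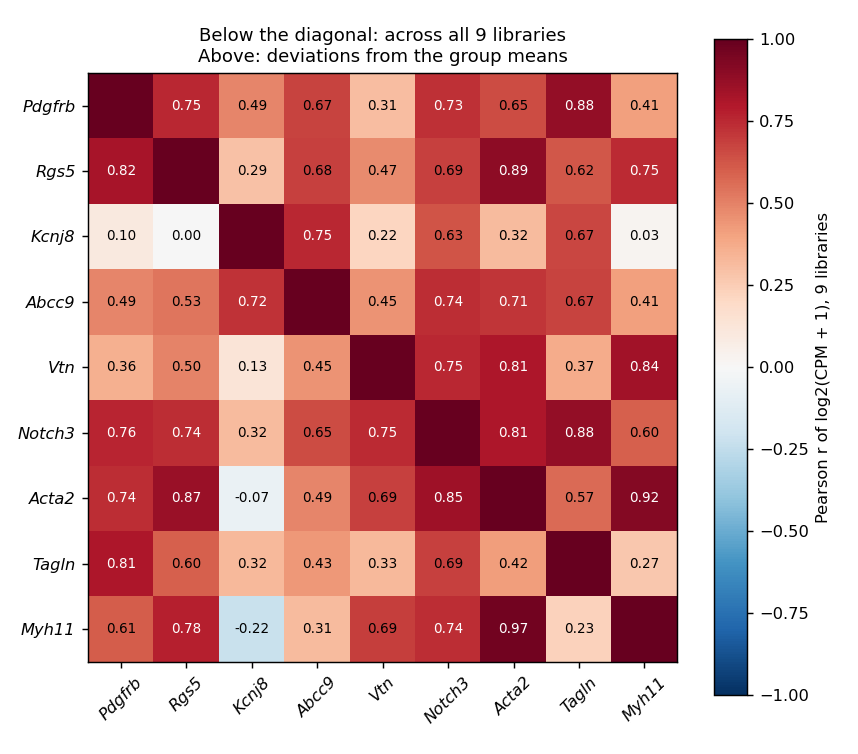
Pearson r of log2(CPM + 1) for each pair of genes (colour and number): below the diagonal across all 9 libraries, above it for deviations from the 3 group means. Acta2 and Myh11 form the closest pair in either triangle, Kcnj8 is the least related to the other genes below the diagonal, and all pairs are positive above it.

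Other genes of these cells and pathways were counted in the same fit. They come from lists chosen with earlier results of these data known. The counts that follow stand beside the shares of all genes tested at an unadjusted p below 0.05, which were 5.47% higher and 4.18% lower in CVST+Ligation against CVST, 1.81% higher and 1.42% lower in 4-PBA against CVST+Ligation, and 8.07% higher and 7.33% lower in 4-PBA against CVST. Of 26 other pericyte genes, 1, 2 and 4 had an unadjusted p below 0.05 in these comparisons, all higher. 0 passed in edgeR after adjustment. In 4-PBA against CVST 2 did in DESeq2 (Cald1 and Mcam), beside 855 of all 14746 genes tested. There 1 (Mcam) passed in edgeR with only those 2 groups fitted, beside 234 of 14526, and without CVST+Ligation replicate 2, beside 541 of 14950. The main edgeR fit called 18 of 14746 in that comparison. Counts this small moved with single libraries, as did the shares of all genes tested, given here in brackets. The number higher was 6 in CVST+Ligation against CVST without CVST replicate 2 (5.05%) and 5 without CVST+Ligation replicate 3 (6.53%). Without CVST+Ligation replicate 2 it was 7 in 4-PBA against CVST+Ligation (5.37%) and 7 in 4-PBA against CVST (10.4%). It was 2 in 4-PBA against CVST without CVST replicate 1 (6.5%) or 4-PBA replicate 2 (5.58%). In 4-PBA against CVST+Ligation it was 0 without CVST+Ligation replicate 1 (1.1%) or 3 (1.29%), without 4-PBA replicate 2 (0.985%) or with the replicate block (1.95%). The median log2 differences were 0.22, 0.10 and 0.44, against 0.00, -0.02 and -0.01 over all genes tested. The first was 0.016 without CVST+Ligation replicate 2, with 13 of 26 genes higher, and -0.13 without CVST replicate 3 as well. It was 0.35 without CVST replicate 2 and 0.34 without CVST+Ligation replicate 3. The second ran from -0.0031 without CVST+Ligation replicate 3 to 0.46 without its replicate 2. Cald1, an actin- and myosin-binding regulator that pericytes and smooth muscle share, was 14.7 ± 4.46 CPM in CVST, 26.1 ± 6.80 CPM in CVST+Ligation and 30.8 ± 4.23 CPM in 4-PBA (log2 difference of 4-PBA from CVST 1.07, SE 0.27, edgeR adjusted p = 0.11). Mcam, an adhesion molecule of mural and endothelial cells, had 23.6 ± 2.54, 36.9 ± 17.7 and 53.8 ± 14.9 CPM. Ggt1, an ectoenzyme of brain pericytes, had the smallest p between 4-PBA and CVST+Ligation, at 3.22 ± 0.17 against 1.99 ± 0.27 CPM (log2 difference 0.69, SE 0.28, edgeR adjusted p = 1).

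Besides contractile genes, the list of 29 other smooth muscle genes holds genes with other roles, such as Nrip2, a nuclear receptor partner, Sncg, a synuclein also found in neurons, and Gucy1b1, a subunit of the nitric oxide receptor. 11 of the 29 were higher and 2 lower at an unadjusted p below 0.05 in 4-PBA against CVST, where 8.07% of all genes tested were higher and 7.33% lower. Nrip2 and Sncg are among those higher and Gucy1b1 among those lower. 0 passed in edgeR after adjustment, beside 18 of all 14746 genes tested. In DESeq2 3 passed (Synpo2, Nrip2, Sncg), beside 855 of 14746. In edgeR without CVST+Ligation replicate 2, 2 passed (Synpo2, Nrip2), beside 541 of 14950. The median log2 difference was 0.70, with a range of -1.02 (Tpm1) to 4.38 (Sncg). Sncg had 87.4 ± 122.8 CPM in 4-PBA, an SD above its mean, against 4.21 ± 1.84 CPM in CVST. Synpo2, an actin-bundling protein of the Z line and dense bodies, was 8.75 ± 2.49 CPM in CVST, 11.1 ± 3.93 CPM in CVST+Ligation and 29.2 ± 10.5 CPM in 4-PBA, a log2 difference of 1.74 between 4-PBA and CVST (SE 0.36, edgeR adjusted p = 0.0684). Nrip2 had 6.85 ± 2.49, 15.1 ± 7.01 and 16.9 ± 2.49 CPM. Between CVST+Ligation and CVST, 2 of the 29 genes were higher and 1 lower at an unadjusted p below 0.05, the median being 0.12. These counts were 5 and 3 without CVST replicate 2 (median 0.25, 5.05% of all genes tested higher). They were 4 and 2 without CVST+Ligation replicate 3 (median 0.18, 6.53% higher), and without CVST+Ligation replicate 1 the median was 0.25. Pdlim7, a PDZ and LIM domain protein of actin filaments, was 22.9 ± 3.45 against 35.6 ± 7.38 CPM (log2 difference -0.64, SE 0.21, edgeR adjusted p = 0.396). Between 4-PBA and CVST+Ligation the counts were 4 higher and 0 lower, beside 1.81% and 1.42% of all genes tested, with a median of 0.36. Here 1 was higher without CVST+Ligation replicate 3 (median 0.18, 1.29% of all genes tested higher) or without 4-PBA replicate 2 (median 0.26, 0.985% higher). Without CVST+Ligation replicate 2, 9 were higher (median 0.62, 5.37% of all genes tested higher). The counts in 4-PBA against CVST were 4 higher and 0 lower without CVST replicate 1, and 5 higher and 3 lower without 4-PBA replicate 2. Of all genes tested, 6.5% and 5.58% were higher at these settings. Without CVST+Ligation replicate 2 and CVST replicate 3, 10 were higher and 2 lower in 4-PBA against CVST, where 10.6% of all genes tested were higher. 3 of the 29 (Gucy1b1, Nrip2 and Sorbs3) then passed the adjusted edgeR test, beside 967 of all 14925 genes tested. In 4-PBA against CVST+Ligation 10 were then higher and 0 lower, where 6.59% of all genes tested were higher. Without CVST+Ligation replicate 2 alone, the median in CVST+Ligation against CVST turned to -0.07. Many of these genes are also used outside smooth muscle.

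The listed regulators of the contractile genes, which include cofactors of SRF and a repressor, were mostly lower in mean. A link to the levels of Acta2 and Myh11 was not tested. Of 7 SRF and myocardin regulators tested, 6 had negative log2 differences in each comparison, where 50.3%, 47% and 48.9% of all genes tested were above 0, and 0 passed in edgeR after adjustment. In the order CVST+Ligation against CVST, 4-PBA against CVST+Ligation and 4-PBA against CVST there were 1 higher and 1 lower, 0 higher and 1 lower, and 0 higher and 3 lower at an unadjusted p below 0.05, beside the 4.18%, 1.42% and 7.33% of all genes tested that were lower. Fhl2, a LIM-only cofactor of SRF, was 64.1 ± 10.04 CPM in CVST, 28.6 ± 12.5 CPM in CVST+Ligation and 20.7 ± 9.36 CPM in 4-PBA, and the CVST libraries overlapped neither other group (edgeR adjusted p = 0.39 and adjusted p = 0.0991), beside 7.21% and 11.5% of all genes tested that were lower without overlap. Klf4, a repressor of the contractile genes, had 4.76 ± 0.90, 8.595 ± 3.37 and 5.72 ± 0.88 CPM. Elk1, an ETS partner of SRF, differed by -0.69 on the log2 scale between 4-PBA and CVST+Ligation (SE 0.21, edgeR adjusted p = 1). Myocardin itself (Myocd) had 2 to 10 counts in a library and was not tested. These regulators are also expressed in neurons and glia.

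Among the PDGF ligands and receptors other than Pdgfrb, 1 of 5 had an unadjusted p below 0.05 between CVST+Ligation and CVST, 0 between 4-PBA and CVST+Ligation, and 2 between 4-PBA and CVST, all higher, beside 5.47%, 1.81% and 8.07% of all genes tested. Pdgfd, a ligand of PDGFRβ, was 1.43 ± 0.45 CPM in CVST, 3.26 ± 1.57 CPM in CVST+Ligation and 3.98 ± 0.05 CPM in 4-PBA (edgeR adjusted p = 0.415 for ligation and adjusted p = 0.137 for 4-PBA, each against CVST). Pdgfra, the sister receptor of oligodendrocyte precursors and fibroblasts, differed by 0.30 between CVST+Ligation and CVST (edgeR adjusted p = 0.701). Pdgfc differed by -0.28 between 4-PBA and CVST+Ligation (edgeR adjusted p = 1). Among 18 Notch ligands, receptors and targets, 2 were higher at an unadjusted p below 0.05 in CVST+Ligation against CVST, 0 in 4-PBA against CVST+Ligation, and 4 were higher and 1 lower in 4-PBA against CVST, beside 5.47%, 1.81%, and 8.07% higher and 7.33% lower among all genes tested. Notch2 was 7.61 ± 1.26, 13.7 ± 5.24 and 13.3 ± 2.08 CPM in the 3 groups, and Heyl, a target gene of Notch3 in mural cells, 0.958 ± 0.591, 2.43 ± 1.52 and 3.82 ± 2.27 CPM (log2 difference of 4-PBA from CVST 1.98, SE 0.66, edgeR adjusted p = 0.198). Maml2, a coactivator of Notch, differed by 0.79 between CVST+Ligation and CVST (edgeR adjusted p = 0.422), and the endothelial receptor Notch4 by 0.44 between 4-PBA and CVST+Ligation (edgeR adjusted p = 1).

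The relatives of the mural channel, like Kcnj8, were lower in mean in 4-PBA. Kcnj11 and Abcc8 encode the Kir6.2 and SUR1 subunits of the channel of neurons and endocrine cells. Kcnj11 was 27.8 ± 7.23 CPM in CVST, 20.5 ± 3.56 CPM in CVST+Ligation and 14.7 ± 1.27 CPM in 4-PBA (edgeR adjusted p = 0.108 between 4-PBA and CVST). Abcc8 was 30.04 ± 8.07, 29.8 ± 9.53 and 18.8 ± 2.22 CPM, with edgeR adjusted p = 1 between 4-PBA and CVST+Ligation. Both genes were lower in every 4-PBA library than in every library of either other group, beside 4.22% of all genes tested against CVST+Ligation and 11.5% against CVST.

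Of 8 vitronectin receptors and partners, 1 was higher at an unadjusted p below 0.05 in 4-PBA against CVST, beside 8.07% of all genes tested, and 0 reached it in the other 2 comparisons with edgeR. That was Itgb8, an integrin chain of astrocytes, at 9.71 ± 3.81 against 16.9 ± 3.12 CPM (edgeR adjusted p = 0.29). Itga5 differed by -1.03 between CVST+Ligation and CVST (SE 0.60, edgeR adjusted p = 0.607), and Itgb1 by 0.29 between 4-PBA and CVST+Ligation (edgeR adjusted p = 1). Of 17 angiopoietin and TGF-β signals, 0 were higher and 1 lower, 0 and 0, and 1 higher and 1 lower at an unadjusted p below 0.05 in the 3 comparisons, with 15.4% of all genes tested called in the last. Acvrl1, an endothelial receptor of the TGF-β family, differed by -0.73 (edgeR adjusted p = 0.436) and Angpt1, the pericyte ligand of Tie2, by 1.26 (edgeR adjusted p = 0.529) between CVST+Ligation and CVST. Angpt2 differed by 0.77 between 4-PBA and CVST+Ligation (edgeR adjusted p = 1), and Tgfb1 by -0.89 between 4-PBA and CVST (edgeR adjusted p = 0.304). Of 10 vasoactive receptors tested, 1 was higher at an unadjusted p below 0.05, the endothelin receptor Ednrb in 4-PBA against CVST (log2 difference 0.54, SE 0.23, edgeR adjusted p = 0.308), again beside 8.07% of all genes tested. The smooth muscle endothelin receptor Ednra was 2.72 ± 1.20, 4.16 ± 1.42 and 3.76 ± 0.41 CPM in CVST, CVST+Ligation and 4-PBA, and the prostaglandin receptor Ptger4 differed by 0.71 between 4-PBA and CVST+Ligation (edgeR adjusted p = 1).

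The 19 endothelial markers had median log2 differences of 0.05, 0.11 and 0.17 in the 3 comparisons, and 1 of them, the lipid transporter Mfsd2a, had an unadjusted p below 0.05, in 4-PBA against CVST (log2 difference 0.50, SE 0.20, edgeR adjusted p = 0.266). Kdr and Abcb1a differed by 0.50 and 0.39 between CVST+Ligation and CVST (edgeR adjusted p = 0.554 and adjusted p = 0.615). Acta2 and other contractile genes are also expressed outside parenchymal vessels, so markers of fibroblasts, meninges and skeletal muscle were summed. 17 fibroblast and meningeal markers summed to 262 to 288 CPM in CVST, 213 to 484 CPM in CVST+Ligation and 241 to 577 CPM in 4-PBA. Of the 17, 14 were higher in mean in either ligated group than in CVST, beside 50.3% and 48.9% of all genes tested. At an unadjusted edgeR p below 0.05, 1 was higher and 2 lower in CVST+Ligation against CVST, beside 5.47% and 4.18% of all genes tested. In 4-PBA against CVST 3 were higher and 2 lower, beside 8.07% and 7.33%. Col6a1 and Col6a2 were the 2 lower genes in both comparisons. 10 skeletal muscle markers summed to 17.7 to 21.2 CPM in CVST, 11.3 to 18.1 CPM in CVST+Ligation and 9.05 to 12.7 CPM in 4-PBA. 8 astrocyte markers summed to 1779 to 2955 CPM, 2236 to 3719 CPM and 2299 to 3494 CPM in the 3 groups, and 8 microglia markers to 666 to 740 CPM, 523 to 606 CPM and 554 to 626 CPM. The part of meningeal tissue in the Acta2 and Myh11 differences was not tested.

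**Figure D5:**
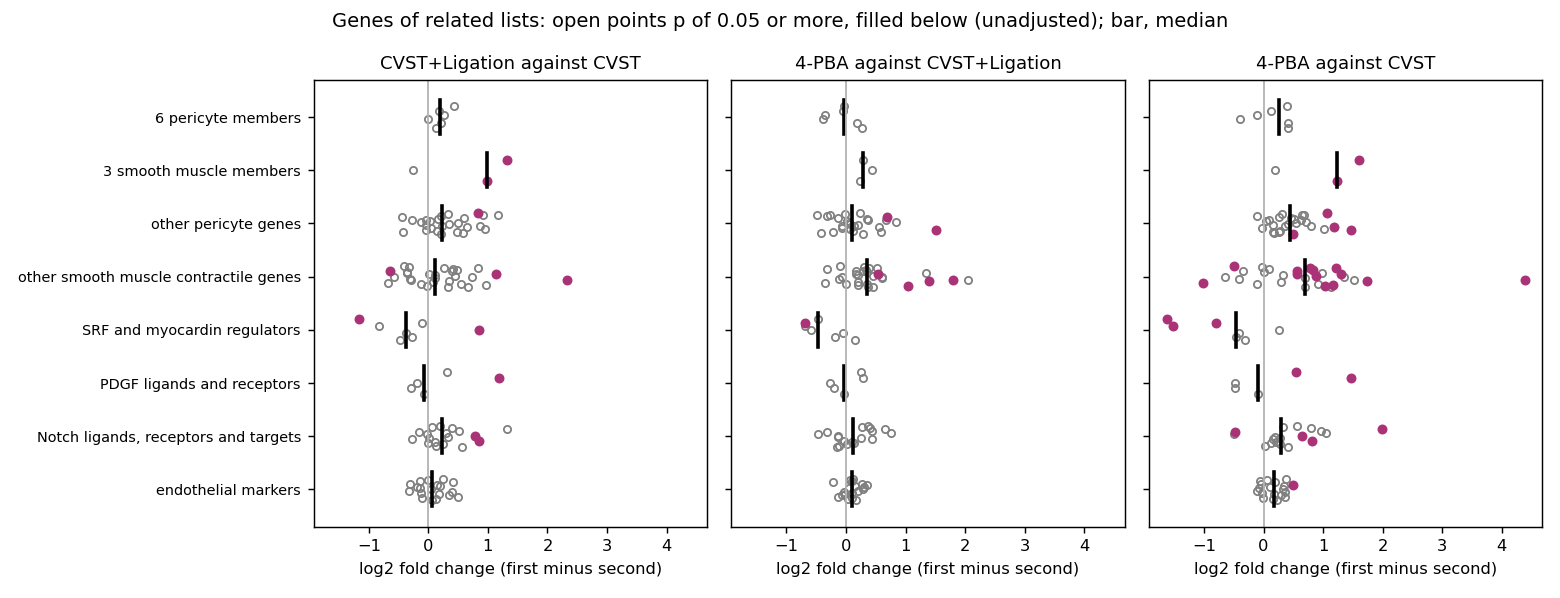
log2 fold change (first group minus second) of each tested gene of 8 lists (the upper rows hold the 9 genes themselves) in the 3 comparisons; filled points have an unadjusted edgeR p below 0.05, open points have not, and the black bar is the list's median. In 4-PBA against CVST the median is 0.70 for the 29 other smooth muscle genes, 0.44 for the 26 other pericyte genes and 0.17 for the 19 endothelial markers, while the median of the 7 SRF and myocardin regulators is -0.46.

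The genes whose pattern over the 9 libraries was most like that of a marker were ranked by Pearson r of log2(CPM + 1) among 13704 genes with a mean of at least 1 CPM. For Pdgfrb these were Nek7 (r = 0.984), Nudt12 (0.96), Pcdha2 (0.944), Rigi (0.927) and Cpne3 (0.926). For Rgs5 they were Gli3 (0.961), Itgb8 (0.95), Entpd1 (0.946), Ly75 (0.943) and Ptprb (0.941). Those reported for Acta2 were Itih5 (0.984), Zfp512 (0.979), Fut10 (0.975) and Amot (0.975). Within the 9 genes, the best ranks were 16 for Acta2 (Myh11), 71 for Rgs5 (Acta2) and 147 for Pdgfrb (Rgs5). Kcnj8 ranked lowest for each, at 7275, 6898 and 5964, and Tagln ranked 3894 for Acta2. Of the genes named as closest here, Itgb8 alone was in any of the lists above.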

How the data were processed

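Brain RNA of 9 mice was sequenced, 3 per group, the groups being taken from the sample titles. Per the labels and methods, the authors filtered reads with fastp, aligned them with HISAT2, assembled transcripts with StringTie and quantified with RSEM; the submitters' notes name mm10 and GRCm38. Program versions are not given in the sources used here. The authors deposited raw counts per gene symbol, which were tested, and values that the methods call TPM but that equal count divided by library total and one length per gene, that is FPKM. The FPKM values the authors deposited sum to 780195 to 879696 per library and were used only to compare levels between genes. How reads shared between genes were counted is not given in the sources used here.

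Counts were fitted with edgeR 4.0.16 in R 4.3.3 (TMM, filterByExpr, quasi-likelihood, 3 groups, no covariates, all 9 libraries), with Benjamini-Hochberg adjustment over 14746 genes. The standard error is the size of the log2 difference divided by the square root of F. Intervals cover the spread between mice. The model was tested on simulated counts. Correlations used exact permutation of 9 libraries (Python 3.11.15, scipy 1.17.1). Figures were drawn with matplotlib 3.10.9. Gene positions are from GENCODE on GRCm38, and promoters from RefSeq on GRCm38.p6.

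The 9 genes and all other lists were chosen with earlier results of these data known. Named besides the 9 are, from each list of a pathway or cell type of the vessel wall, the 2 genes with the smallest p in CVST+Ligation against CVST and the 1 with the smallest p in each other comparison, and the 5 genes closest in pattern to Pdgfrb, Rgs5 and Acta2, of which 1 is not reported here. Other genes named were chosen after their values were seen. The alternatives were DESeq2 1.42.0 or its size factors, total counts, other filters, only the groups compared, a replicate block, leaving out each library, and limma 3.58.1 on log2 FPKM with a pseudocount of 1 or 0.1. Replicate numbers come from the titles.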

Additional observations from a re-analysis of the deposited data

How the results depend on the processing

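No gene of the 9 passed after adjustment with edgeR under any scaling, filter, block or left-out library; DESeq2 called 2 in 4-PBA against CVST, Acta2 and Myh11, and 264, 22 and 855 genes overall in the 3 comparisons where edgeR called 3, 0 and 18. All log2 differences of Acta2 and Myh11 from CVST kept their direction. With each library left out, the count at an unadjusted p below 0.05 was 0 to 3 in CVST+Ligation against CVST, being 0 without CVST+Ligation replicate 2 and 1 without CVST replicate 1 or 3. Without CVST+Ligation replicate 2 and CVST replicate 3 together, chosen after seeing the data, it was 1 in this comparison and 1 in 4-PBA against CVST+Ligation, Tagln in both (-0.90 with edgeR adjusted p = 0.167, and 0.78 with adjusted p = 0.226). With total counts 13 of the 36 pairs, instead of 5, had an adjusted p below 0.05, and among genes at an unadjusted p below 0.05 the share that was higher was 65.4%, 66.1% and 65.1% instead of 56.7%, 56.1% and 52.4%. Across genes, deviations from the group means of same-numbered libraries correlated with r from -0.0639 to 0.34, above 0.1 in 4 of 9 pairs, and those of libraries with other numbers from -0.416 to 0.106. Since not every same-numbered pair was above 0.1, and not every library correlated best with its own number, the numbers were not taken to pair the mice. Yet the highest values, 0.34, 0.233, 0.166 and 0.147, all belonged to same-numbered pairs. A batch shared by number was not tested. With the replicate block, 0, 0 and 0 of the 9 genes passed after adjustment and 2, 0 and 3 had an unadjusted p below 0.05, while 1, 1 and 25 of all genes passed.

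Small differences changed sign; the cause was not tested. Kcnj8 in CVST+Ligation against CVST was 0.038 with total counts, 0.025 with the replicate block, 0.070 and 0.086 with limma at pseudocounts of 1 and 0.1, and up to 0.34 with a library left out. In 4-PBA against CVST+Ligation, Notch3 was 0.027 with the replicate block, 0.034 and 0.056 with limma and -0.22 to 0.33 with a library left out, and Vtn was 0.025 and 0.026 with limma and -0.18 to 0.26 with a library left out. Abcc9 in 4-PBA against CVST was 0.015 and 0.049 with limma and -0.43 to 0.18 with a library left out. Further ranges with a library left out that cross 0 were -0.024 to 0.35 for Rgs5, -0.031 to 0.64 for Acta2 and -0.015 to 0.72 for Myh11 in 4-PBA against CVST+Ligation, -0.12 to 0.39 for Tagln in 4-PBA against CVST, and -0.07 to 0.53 for Abcc9, -0.12 to 0.38 for Pdgfrb and -0.13 to 0.30 for Vtn in CVST+Ligation against CVST. Without both libraries named above, CVST+Ligation against CVST was -0.22 for Pdgfrb, -0.092 for Rgs5, -0.37 for Kcnj8, -0.31 for Abcc9, -0.14 for Vtn and -0.10 for Notch3. There, single libraries left out gave 0.0071 to 0.43 for Rgs5 and 0.078 to 0.61 for Notch3. Also without both, 4-PBA against CVST+Ligation was 0.25 for Vtn and 0.32 for Notch3, and 4-PBA against CVST -0.12 for Tagln. Every gene of the 9 had 110 counts or more in each library.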
